A study of Mus musculus with 24 samples.

Results

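The genes described here are titin cap (Tcap) and 9 further genes of the cardiac Z-disc and of stretch sensing, 10 of the 22180 genes measured by name on the arrays. They were chosen by symbol, as the probe sets whose only gene in the platform annotation is Tcap, Ttn, Ankrd1, Ankrd2, Ankrd23, Csrp3, Ldb3, Myot, Actn2 or Nexn, and each had 1 probe set. Hearts came from untreated male wild-type C57Bl/6 mice, 8 weeks old, under 12 h of light and 12 h of dark, and myocardium was sampled at 6 points of the cycle, named by zeitgeber time (ZT, counted in hours from when the lights came on). ZT03, ZT07 and ZT11 fall in the light phase, ZT15, ZT19 and ZT23 in the dark phase, and each had 4 arrays, labelled as biological replicates. All groups share the genotype, sex, age and tissue and differ only in time, and the labels do not say which part of the heart was taken. The times cover 1 cycle, no batch is named, and p-values rest on the spread between arrays of a time. For fitted rhythms that spread also holds departures of the time means from the fitted curve. Mice are active mainly in the dark.

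The Z-disc is the protein plate that bounds each sarcomere, the contractile unit of muscle. Alpha-actinin cross-links thin filaments there, and the giant spring protein titin is anchored in it by the cap protein telethonin, the product of Tcap. Several Z-disc and titin-binding proteins also take part in sensing stretch, and the genes of the muscle ankyrin repeat proteins, Ankrd1, Ankrd2 and Ankrd23, are known to be induced by mechanical load.

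Each value is a difference on the log2 scale from the median of that gene over the 24 arrays. Values therefore carry no expression level, and levels of different genes cannot be set against each other. No source used here names the logarithm's base, which was taken as 2. Bulk tissue does not tell fewer cells of a type from less RNA per cell. The genes were listed when 24-h rhythms of these arrays were already known, those of Tcap, Ankrd23 and Myot among them, so amplitudes, peak times, calls and adjusted p-values of these genes describe the arrays and are no independent evidence. A call means an adjusted p below 0.05 over all 22180 genes in limma.

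Sequence around the starts of Ankrd23, Ankrd1 and Actn2 is shown because these genes held most of the motif matches described here and range from a large to the smallest amplitude among the 10. The search used RefSeq windows of assembly GRCm38.p6, from 250 bases before to 50 bases after a transcript start. It covered 10 windows, from 7 of the 10 genes. Both strands were searched for the E-box CACGTG bound by CLOCK and BMAL1, the D-box TTATGTAA, the nuclear receptor half-site AGGTCA, the TEAD element MCAT (CATTCC), the CArG box of serum response factor and the MEF2 site. Capitals below mark CATTCC in both windows of Ankrd23 and AGGTCA in the upstream one (chr1:36536507-36536806 and chr1:36535690-36535989, minus strand). In Ankrd1 (chr19:36119795-36120094, minus strand) they mark CATTCC, read here as its reverse complement GGAATG. In Actn2 (chr13:12340683-12340982, minus strand) they mark CACGTG and AGGTCA.
Ankrd23, upstream window: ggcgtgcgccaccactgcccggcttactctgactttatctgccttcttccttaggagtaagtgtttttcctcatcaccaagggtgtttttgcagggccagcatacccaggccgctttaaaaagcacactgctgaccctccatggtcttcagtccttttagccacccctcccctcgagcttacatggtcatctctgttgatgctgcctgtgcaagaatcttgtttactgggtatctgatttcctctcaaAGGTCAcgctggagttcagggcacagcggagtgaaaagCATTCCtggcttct
Ankrd23, downstream window: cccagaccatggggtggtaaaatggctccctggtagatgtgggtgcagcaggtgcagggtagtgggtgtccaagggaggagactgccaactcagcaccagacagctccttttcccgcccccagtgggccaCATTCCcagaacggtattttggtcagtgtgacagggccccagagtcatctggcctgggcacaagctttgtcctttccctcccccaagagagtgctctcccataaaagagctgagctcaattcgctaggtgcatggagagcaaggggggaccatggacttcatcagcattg
Ankrd1: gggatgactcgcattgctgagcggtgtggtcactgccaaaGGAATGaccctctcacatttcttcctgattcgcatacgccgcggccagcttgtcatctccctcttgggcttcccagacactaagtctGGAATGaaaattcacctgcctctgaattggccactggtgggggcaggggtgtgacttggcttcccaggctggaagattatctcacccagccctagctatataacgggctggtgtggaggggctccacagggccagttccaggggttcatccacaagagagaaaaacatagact
Actn2: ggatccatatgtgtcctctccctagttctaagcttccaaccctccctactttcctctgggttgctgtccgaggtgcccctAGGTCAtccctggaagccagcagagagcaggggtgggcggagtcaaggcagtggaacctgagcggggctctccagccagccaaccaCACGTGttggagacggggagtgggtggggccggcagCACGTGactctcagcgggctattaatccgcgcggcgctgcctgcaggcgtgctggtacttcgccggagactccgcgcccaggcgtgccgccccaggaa

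Positions count from the transcript start as 1, with negative numbers before it. Actn2 held CACGTG at -84 and -48, and none of the other 9 windows held it, against 7.15% of all 32851 windows. AGGTCA stood at -170 in Actn2 and at -2 in the upstream window of Ankrd23, and 16.3% of all windows held it. CATTCC stood at -210 and -123 in Ankrd1, at 37 and -120 in the 2 windows of Ankrd23 and at 12 in Ttn, against 14.7% of all windows. A CArG box was found in the overlapping windows of Ldb3 (1.63% of all windows) and a MEF2 site at -166 in Ttn (3.19%), while TTATGTAA was in none of the 10 windows (0.938%). No window of Tcap, Myot or Nexn was searched, so the matches are not a complete count for the 10 genes. These letters describe the windows and say nothing of binding.

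Of the 10 genes, 6 had a call for a 24-h rhythm in limma's cosine fit, against 7.61% of all genes, and this count is a description because the listing knew such rhythms. Of the 6, Tcap, Ttn, Ankrd23, Csrp3 and Nexn peaked in the light and Myot in the dark. The 10 amplitudes, the peak minus the mean, had a median of 0.115 on the log2 scale, against 0.0396 over all genes, and ran from 0.0182 for Actn2 to 0.984 for Tcap. By amplitude Tcap ranked 6 and Ankrd23 ranked 30 among all 22180 genes, followed by Myot at 217, Ankrd1 at 302 and Nexn at 1056. Ttn, Ldb3, Csrp3 and Ankrd2 lay between ranks 5138 and 7183, and Actn2 at 17524. The spread is therefore wide, from a daily change of 3.91-fold to a gene whose 6 time means spanned 0.0412.

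**Figure D1:**
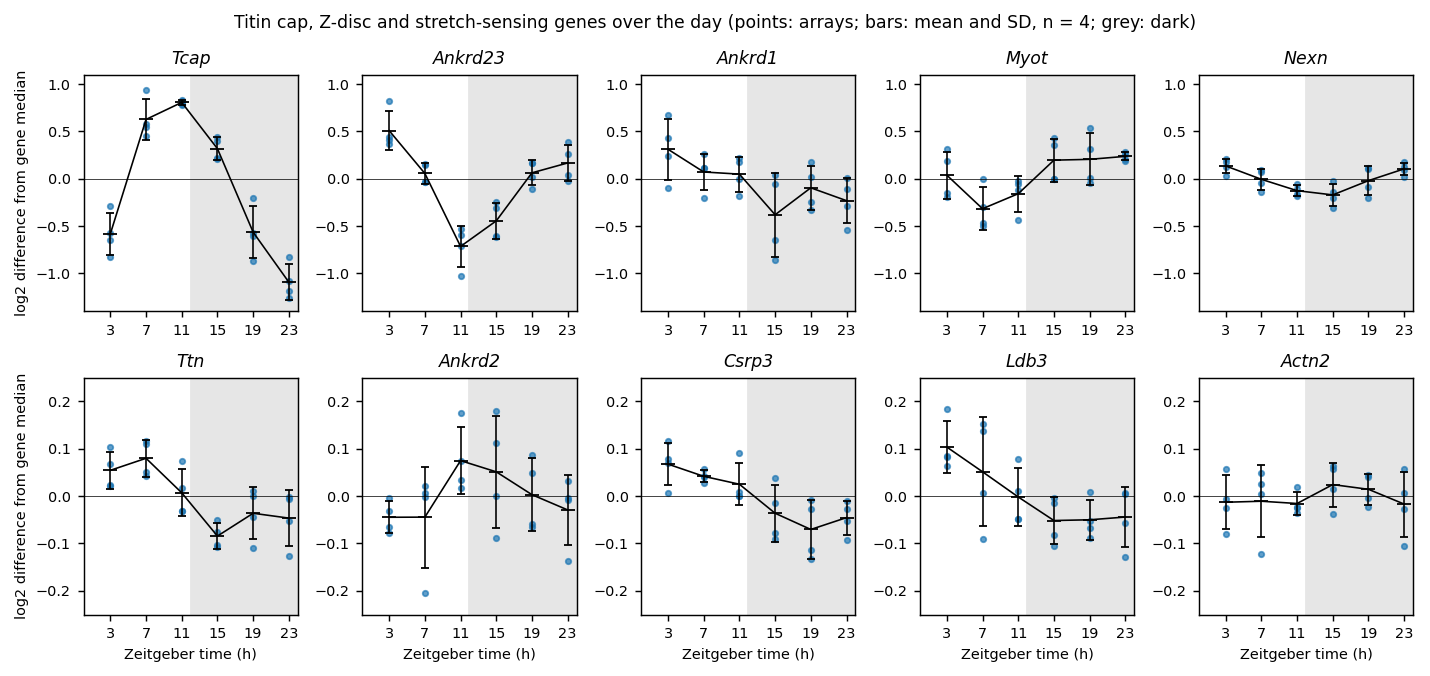
Log2 difference from the gene's median (vertical axis) by zeitgeber time in hours (horizontal axis) for the 10 genes, with points for arrays, bars for mean and SD (n = 4) and grey for the dark phase. The rows have different vertical scales: Tcap runs from -1.09 at ZT23 to 0.81 at ZT11 and Ankrd23 is lowest at ZT11, whereas the lower row holds no array farther than 0.204 from 0.

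Tcap, the titin cap, rose through the first part of the light phase and fell through the night. Through the light phase Tcap had values of -0.64, -0.83, -0.57 and -0.29 at ZT03, 0.54, 0.45, 0.57 and 0.94 at ZT07, and 0.78, 0.82, 0.79 and 0.83 at ZT11. After lights-off its arrays read 0.21, 0.44, 0.40 and 0.22 at ZT15, -0.21, -0.60, -0.57 and -0.87 at ZT19, and -1.26, -1.19, -1.08 and -0.83 at ZT23. Ordered by mean, ZT11 and ZT07 overlapped, ZT15 lay apart from both its neighbours in that order, and ZT19 and ZT03 overlapped. ZT23 had the lowest mean and overlapped with ZT19, and its arrays lay below those of the other 4 times, narrowly so for ZT03. In all, 12 of the 15 pairs of times lay apart. The 4 ZT11 values were nearly equal (mean 0.81 ± 0.027, SD, n = 4), while the SD at the other times lay between 0.119 at ZT15 and 0.273 at ZT19. The cosine fit gave a peak-to-trough change of 3.91-fold and a peak placed at ZT 10.7 with an SE of 0.210 h, and the cosine took 98.5% of the variance between time means.

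The rise of Tcap fell between ZT03 and ZT07, a step of 1.21 ± 0.126 (SE) or 2.31-fold (adjusted p = 1.17e-05 in limma), against 0.0947% of all genes called higher in that step. It was the only called step upward among the 10 genes. The largest fall came between ZT15 and ZT19, of -0.88 ± 0.126 (adjusted p = 0.00127), where 0.126% of all genes were called lower. The steps on either side of that fall, -0.49 from ZT11 to ZT15 and -0.53 from ZT19 to ZT23, did not pass (adjusted p = 0.142 and 0.193), where 0.0902% and 0.0496% of all genes were called lower. Across lights-on, ZT03 exceeded ZT23 by 0.51 ± 0.126 (adjusted p = 0.0651 in limma). This step was called when ZT03 replicate 2, ZT07 replicate 4, ZT19 replicate 1 or ZT19 replicate 4 was left out. It was also called with array weights and without the 3 arrays of widest spread (lowest adjusted p over all alternatives 0.0298).

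Of named genes outside the 10, Tcap was most like Nr1d2, Dbp and Per3 over the 24 arrays (Pearson r = 0.964, 0.939 and 0.918, given as a description of arrays that share their times). Nr1d2 encodes a REV-ERB repressor and Dbp and Per3 are clock output and clock genes. Nr1d2 peaked at ZT 10.5 (3.46-fold), within 0.174 h of Tcap, and Dbp at ZT 11.4 (5.08-fold). Arntl, the gene of BMAL1, peaked 10.3 h away from Tcap.

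Ankrd23, of the muscle ankyrin repeat family, was highest after lights-on and lowest at ZT11, where Tcap was highest. Early in the light its 4 arrays read 0.36, 0.82, 0.41 and 0.44 at ZT03, 0.14, 0.16, -0.037 and -0.038 at ZT07, and -1.02, -0.60, -0.71 and -0.53 at ZT11. In the dark phase Ankrd23 read -0.61, -0.61, -0.25 and -0.31 at ZT15, 0.17, 0.17, 0.022 and -0.11 at ZT19, and 0.38, 0.26, 0.040 and -0.022 at ZT23. ZT03 was highest and overlapped only with ZT23, the middle times ZT23, ZT19 and ZT07 overlapped with each other, and all arrays of ZT15 and ZT11 lay below all others. The fit placed its peak at ZT 1.07 ± 0.455 (2.08-fold), 9.60 h from that of Tcap.

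Ankrd23 fell between ZT07 and ZT11 by 0.77 ± 0.119 (SE), a 1.71-fold change (adjusted p = 0.00296), where 0.104% of all genes were called lower. Its return was spread over several steps, none of which passed, the nearest being 0.51 from ZT15 to ZT19 (adjusted p = 0.0885), where 0.0766% of all genes were called higher. A cosine took 85.9% of its variance between time means, and a 12-h term of amplitude 0.213 had an unadjusted p of 0.0008 but an adjusted p of 0.391. In that 12-h test limma called 0 of the 10 genes and 0% of all genes, with 1 of the 10 and 1402 of all genes at an unadjusted p below 0.05. Over the 24 arrays Ankrd23 was most like Rcan1, the calcineurin inhibitor (r = 0.925), Nppb, which encodes the natriuretic peptide BNP (r = 0.919), and Hmgcs1, an enzyme of sterol synthesis (r = 0.909). Rcan1 and Nppb peaked within 0.545 h of Ankrd23. The clock gene Arntl, which peaked at ZT 0.329, lay 0.741 h from Ankrd23.

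Taking the difference between Tcap and Ankrd23 within each array removes any shift shared by a whole array. That difference was -1.09 ± 0.389 (SD, n = 4) at ZT03, 0.57 ± 0.299 at ZT07, 1.52 ± 0.194 at ZT11, 0.76 ± 0.225 at ZT15, -0.63 ± 0.184 at ZT19 and -1.26 ± 0.368 at ZT23. Each gene is centred on its own median, so 0 does not mark equal levels. The difference was positive in every array from ZT07 to ZT15 and negative in every array of the other times. It restates the opposite courses given above and is no independent evidence.

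The other ankyrin repeat genes were not called for a rhythm. Ankrd1, whose product binds titin and also enters the nucleus, had values of 0.43, 0.67, -0.094 and 0.24 at ZT03, 0.11, 0.26, 0.12 and -0.20 at ZT07 and 0.17, -0.19, 0.22 and -0.0076 at ZT11. In the dark it had -0.86, -0.65, 0.043 and -0.053 at ZT15, -0.33, 0.18, 0.013 and -0.25 at ZT19, and 0.0076, -0.11, -0.28 and -0.54 at ZT23. Every neighbouring pair in the order of its means overlapped, and its arrays were split at ZT15 between 2 low and 2 middling values (SD 0.444). Its fitted amplitude of 0.248 ± 0.081 (1.41-fold, peak at ZT 5.09) was not called, and 54.8% of its variance lay within times. Ankrd2, better known from skeletal muscle, had time means between -0.045 and 0.075 and was not called (amplitude 0.060 ± 0.023). The genes most like Ankrd1 over the arrays were Clip4, Retreg1 and Zfand5 (r = 0.839, 0.826 and 0.819), whose peaks lay between ZT 5.21 and ZT 6.25.

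Nexn, which encodes the actin-binding Z-disc protein nexilin, had a smaller change in the same phase as Ankrd23. The ZT03 arrays of Nexn read 0.18, 0.13, 0.21 and 0.030, followed by 0.070, 0.096, -0.050 and -0.14 at ZT07, and -0.17, -0.056, -0.10 and -0.18 at ZT11. In the dark phase Nexn had -0.31, -0.023, -0.21 and -0.14 at ZT15, -0.21, -0.090, 0.11 and 0.11 at ZT19, and 0.17, 0.096, 0.12 and 0.023 at ZT23. All neighbours in the order of its means overlapped, but the ZT03 and ZT23 arrays lay above all those of ZT11 and ZT15. The fitted peak was at ZT 1.42 ± 0.665, which is 0.355 h from that of Ankrd23, with a change of 1.24-fold, and the cosine took 99.1% of the variance between its time means.

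Myot, the gene of the Z-disc protein myotilin, was the member called with a peak in the dark, at ZT 20.0 ± 0.809 (1.46-fold). In the light it had 0.31, 0.18, -0.16 and -0.19 at ZT03, -0.30, -0.0028, -0.47 and -0.49 at ZT07, and -0.028, -0.44, -0.051 and -0.12 at ZT11. In the dark it had 0.00063, 0.35, 0.43 and -0.00063 at ZT15, 0.54, 0.32, 0.0060 and -0.047 at ZT19, and 0.19, 0.26, 0.21 and 0.28 at ZT23. The 4 arrays of ZT23 were close together (SD 0.042), whereas those of ZT03, ZT15 and ZT19 each fell into higher and lower values. Genes most like it were Gpx3, Bgn and Ccl9 (r = 0.773, 0.773 and 0.766), of an extracellular peroxidase, the matrix proteoglycan biglycan and a chemokine. Some marker lists of other cells were also higher at night. The mean of 4 platelet markers (3 called for a rhythm) ran from -0.17 at ZT11 to 0.59 at ZT23. Of the 3 called, Ppbp changed 4.89-fold, Gp9 1.70-fold and Pf4 1.34-fold, and single arrays of this mean ran from 0.026 to 1.32 at ZT15. The mean of 6 macrophage markers (4 called) ran from -0.19 at ZT07 to 0.12 at ZT19. The mean of 5 atrial markers (0 called) ran from -0.14 at ZT07 to 0.23 at ZT19. Means of other lists took other courses. That of 6 fibroblast markers (3 called) ran from 0.109 at ZT03 to -0.093 at ZT23, but its called markers differed. Dcn peaked in the dark at ZT 18.7, and Col1a1 and Col3a1 in the light at ZT 6.29 and ZT 6.24. The mean of 6 endothelial markers ran from 0.10 at ZT03 to -0.082 at ZT11 (1 called, Kdr, with a peak at ZT 2.23). That of 6 smooth muscle and pericyte markers (0 called) ran from 0.062 at ZT15 to -0.033 at ZT19. Whether any of these markers is absent cannot be read from values centred on the median. Their part in the course of Myot was not tested. The mean of 12 skeletal muscle markers (0 called) lay between -0.032 and -0.011 by day and between 0.0051 and 0.039 at night. That of 10 ventricular markers (1 called) lay between 0.00049 and 0.044 by day and between -0.035 and -0.019 at night. In both lists single arrays of day and night overlapped. The called ventricular marker had an amplitude of 0.081 and a peak at ZT 5.53. The part of such shifts in the small changes of Ttn, Csrp3 and Ldb3 was not tested.

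The structural core changed little. Ttn, the gene of titin itself, had means of 0.054 ± 0.039, 0.080 ± 0.039, 0.0070 ± 0.050, -0.084 ± 0.027, -0.036 ± 0.055 and -0.046 ± 0.059 (SD, n = 4) from ZT03 to ZT23. Its amplitude was 0.075 ± 0.015 (1.11-fold, peak at ZT 5.72), and its ZT03 and ZT07 arrays all lay above those of ZT15. Csrp3, which encodes muscle LIM protein, had a like course with an amplitude of 0.067 ± 0.015 and a peak at ZT 6.45, and its means ran from 0.068 at ZT03 to -0.070 at ZT19. Ldb3, the gene of the PDZ-LIM protein ZASP (cypher), had means from 0.104 at ZT03 to -0.052 at ZT15 (amplitude 0.074 ± 0.020). Ldb3 was not called for a rhythm, but was called without ZT07 replicate 4, ZT19 replicate 2 or ZT23 replicate 4. It was also called with quantile normalization, with array weights and without the 3 arrays of widest spread. Actn2, the gene of the thin-filament cross-linker alpha-actinin 2, had means between -0.017 and 0.024 with 89.4% of its variance within times. Its amplitude of 0.018 ± 0.016 gives a change of 1.03-fold.

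**Figure D2:**
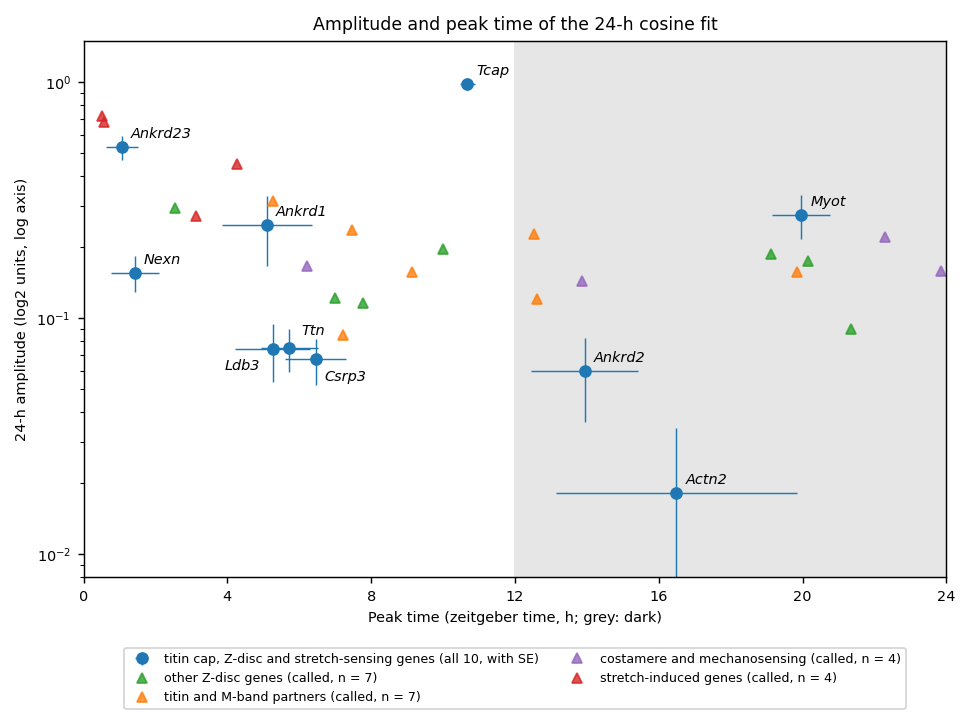
Amplitude of the fitted 24-h cosine in log2 units (vertical, log axis) against its peak time in hours (horizontal, grey for the dark phase), as blue points with SE for the 10 genes and triangles for called genes of 4 other lists. Tcap stands alone near ZT 10.7 at 0.984, and Ttn, Ldb3 and Csrp3 sit together between ZT 5.27 and ZT 6.45 below 0.08. Ankrd23 lies beside Nppb and Rcan1 near lights-on, from a stretch-induced list with 4 of 15 genes called. The clock gene Arntl, not plotted, peaked at ZT 0.329.

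Comparing night (ZT15, ZT19 and ZT23) with day (ZT03, ZT07 and ZT11) called 6 of the 10 genes, against 4.39% of all genes, with 1 higher and 5 lower (1.89% and 2.49% of all genes). Tcap was lower at night by 0.73 ± 0.073 on the log2 scale, or 1.66-fold, although single arrays of the phases overlapped. Its night values had a lowest, median and highest of -1.26, -0.59 and 0.44, against -0.83, 0.56 and 0.94 by day. Myot was higher at night, with -0.047, 0.24 and 0.54 against -0.49, -0.14 and 0.31 by day (difference 0.36 ± 0.082, adjusted p = 0.0123), and the phases overlapped. Ttn, whose titin spring sets passive tension, had -0.127, -0.051 and 0.0098 at night against -0.032, 0.046 and 0.117 by day (difference -0.103 ± 0.021, adjusted p = 0.00595). Csrp3 differed by -0.095 ± 0.021 (adjusted p = 0.0101). Ankrd1 (-0.38 ± 0.107, adjusted p = 0.0462) and Ldb3 (-0.0996 ± 0.029, adjusted p = 0.0498) stood at the threshold. Leaving out 1 array ended the Ankrd1 call for 17 of the 24 arrays, as did the replicate block (highest adjusted p 0.0846), and the Ldb3 call for 19 of them (highest adjusted p 0.0925). Ankrd23 was not called in this contrast (-0.021 ± 0.069), and each phase held both high and low times of it.

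Dusk (ZT11 and ZT15) against dawn (ZT23 and ZT03) called 3 of the 10 genes, against 3.76% of all genes, with 1 higher and 2 lower (2.06% and 1.7% of all genes). Tcap was 1.40 ± 0.089 higher at dusk, or 2.64-fold (adjusted p = 6.45e-10). Ankrd23 was 1.89-fold lower (-0.92 ± 0.084, adjusted p = 2.67e-07) and Nexn 1.20-fold lower (-0.27 ± 0.050, adjusted p = 0.00189). None of these 3 calls was lost without any single array. The other 7 genes lay between -0.206 for Ankrd1 and 0.10 for Ankrd2.

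**Figure D3:**
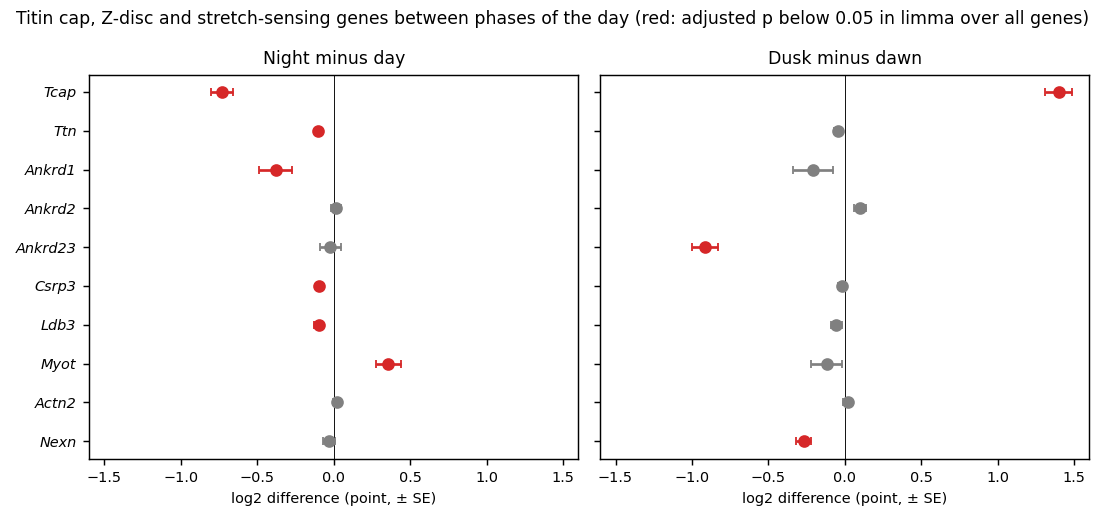
Log2 difference ± SE (horizontal axis) of the 10 genes (rows) for night minus day on the left and dusk minus dawn on the right, in red where the adjusted p over all genes is below 0.05. Tcap lies at -0.73 on the left and at 1.40 on the right, whereas Ankrd23 is near 0 on the left and at -0.92 on the right.

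Any difference among the 6 times was called in 4 of the 10 genes, namely Tcap, Ttn, Ankrd23 and Nexn, against 4.72% of all genes. The calls of Tcap (adjusted p = 2.53e-09) and Ankrd23 (adjusted p = 7.24e-06) were kept without any single array. For Ttn (adjusted p = 0.0364) the call ended on leaving out any one of 10 arrays, and for Nexn (adjusted p = 0.0353) any one of 12, and both were lost with the replicate block, which left 2 genes called.

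Between neighbouring times the 10 genes had 3 called steps, the 2 of Tcap and the 1 of Ankrd23 given above. Across lights-on, 8 of the 10 genes had a higher mean at ZT03 than at ZT23, with a median difference of 0.107, but limma called 0 of them, against 0.685% of all genes, and 6 had an unadjusted p below 0.05. Limma also called 0 from ZT11 to ZT15 (0.203% of all genes, 5 of the 10 at an unadjusted p below 0.05) and 0 from ZT19 to ZT23 (0.0676%, 1 of the 10).

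Genes of the same structures were counted from lists chosen by function, with some of their rhythms already known. Of 28 other Z-disc genes measured, 7 were called for a 24-h rhythm (25%), against 7.61% of all genes. Of these 7, 4 had peaks in the light and 3 in the dark, against 849 and 839 of all called genes. The median change over the 28 was 1.12-fold, against 1.06-fold over all genes. Cavin4, a caveolar protein gene of muscle, had an amplitude of 0.29 ± 0.023 with a peak at ZT 2.55 (adjusted p = 2.1e-08). The synaptopodin genes lay apart, Synpo2l at ZT 9.99 (1.31-fold, adjusted p = 0.00205) and Synpo2 at ZT 19.1 (1.30-fold, adjusted p = 0.0015). Mypn, the gene of myopalladin, which binds alpha-actinin and the Ankrd1 protein, peaked at ZT 20.1 (1.27-fold, adjusted p = 0.000292), 0.180 h from its relative Myot.

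Partners of titin and of the M-band, the plate in the middle of the sarcomere, had 7 of 17 called (41.2%), against 7.61% of all genes. Of these 7, 4 had peaks in the light and 3 in the dark, and the median change over the 17 was 1.12-fold. Trim63, a ubiquitin ligase that binds titin at the M-band, changed 1.54-fold with a peak at ZT 5.26 (adjusted p = 2.43e-05). Myom2, of an M-band cross-linker, peaked at ZT 7.47 (1.39-fold, adjusted p = 1.67e-05), and Rbm20, the splicing factor that sets titin isoforms, at ZT 9.13 (1.24-fold, adjusted p = 0.017). Sqstm1, the autophagy receptor that is linked to the titin kinase region, peaked at ZT 12.5 (1.37-fold, adjusted p = 0.000189).

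Costamere and mechanosensing genes, which tie Z-discs to the cell membrane and matrix, had 4 of 19 called (21.1%), against 7.61% of all genes. Of these 4, 1 had a peak in the light and 3 in the dark, and the median change over the 19 was 1.09-fold. Tead1, a DNA-binding partner of YAP, peaked at ZT 22.3 (1.36-fold, adjusted p = 0.000101), and Sorbs2, an adaptor, at ZT 23.9 (1.25-fold, adjusted p = 0.00417). Svil peaked at ZT 6.23 (1.26-fold, adjusted p = 0.00848) and Zyx, the gene of zyxin, at ZT 13.9 (1.22-fold, adjusted p = 0.0478). Stretch-induced genes had 4 of 15 called (26.7%), against 7.61% of all genes, and the median change over the 15 was 1.17-fold. All 4 had peaks in the light, where 849 of the 1688 called among all genes had theirs. Nppb (2.70-fold, ZT 0.524, adjusted p = 2.88e-05) and Rcan1 (2.56-fold, ZT 0.559, adjusted p = 1.94e-09) lay next to Ankrd23, as did the clock gene Arntl (ZT 0.329). Ccn1, a matrix signalling gene (1.87-fold, ZT 4.26, adjusted p = 0.000112), and the immediate early gene Egr1 (1.46-fold, ZT 3.13, adjusted p = 0.0137) followed later.

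Deviations of single arrays from their time means leave out the mean daily course. They can still hold differences between animals in the timing of that course, which were not tested. Among the 45 pairs of the 10 genes their Pearson correlations over the 24 arrays ran from -0.582 to 0.645, with a median of 0.033. Ankrd23 and Ldb3 had the highest correlation (r = 0.645, permutation p = 0.00101, adjusted p = 0.0454; Spearman's rho = 0.594, permutation p = 0.00295, adjusted p = 0.125; two-sided, permuted within times). It was 0.602 without the 2 arrays farthest from the median of Ankrd23. Pearson's r thus passed the threshold in 1 of 45 pairs and Spearman's rho in 0. At an unadjusted permutation p below 0.05 there were 14 and 12 pairs, and pairs of other genes were not examined. In ZT07 replicate 4 Tcap deviated by 0.309, and Ankrd1, Ankrd23, Ldb3, Actn2 and Nexn by -0.273, -0.094, -0.141, -0.111 and -0.135. In ZT23 replicate 4 Tcap deviated by 0.260, and the same genes by -0.305, -0.188, -0.085, -0.088 and -0.081. Both arrays are among the 3 of widest spread, and their part in the correlations was not tested. Tcap and Ttn had the lowest correlation (r = -0.582, permutation p = 0.0119, adjusted p = 0.0914; rho = -0.515, permutation p = 0.0166, adjusted p = 0.125), and it was -0.470 without the 2 arrays farthest from the median of Tcap. Ankrd1 and Ankrd23, whose fitted peaks lay 4.02 h apart, had r = 0.557 (permutation p = 0.0207, adjusted p = 0.0914; rho = 0.587, permutation p = 0.0167, adjusted p = 0.125), and r = 0.513 without the 2 arrays farthest from the median of Ankrd1.

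**Figure D4:**
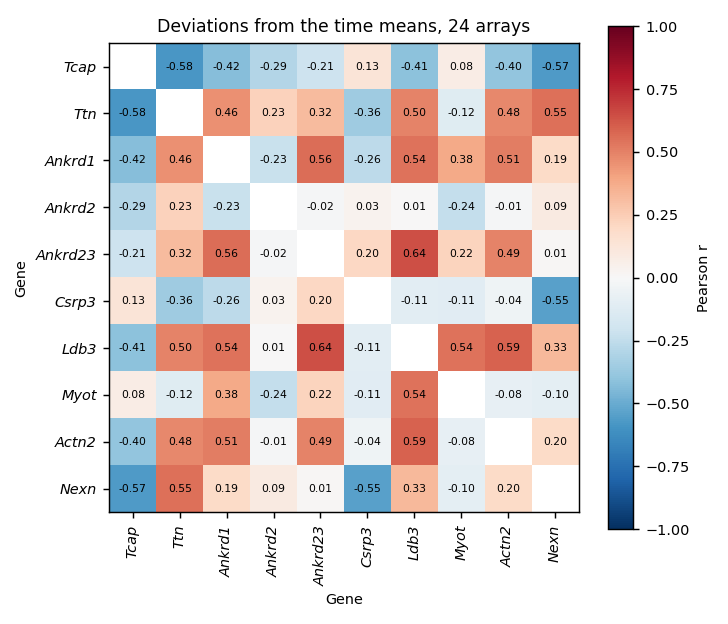
Pearson correlation (colour and printed value) between the deviations of each pair of the 10 genes (both axes) from their time means over 24 arrays. Ankrd1, Ankrd23, Ldb3 and Actn2 correlate with each other at 0.49 to 0.64, and Tcap correlates negatively with Ttn and Nexn at -0.58 and -0.57. In ZT07 replicate 4 and ZT23 replicate 4 Tcap deviated upward and all of these other genes downward, and the part of these arrays was not tested.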

How the data were processed

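RNA of 24 mouse hearts was measured on Affymetrix mouse gene arrays from biotin-labelled cRNA made from 500 ng of total RNA, per the labels' protocols. The deposited table holds 1 value per probe set and array, read as log2, in which the authors' values of every probe set have a median of 0 over the 24 arrays (within 5e-07). How probe signals were corrected, scaled and summarised, and with which program, is not given in the sources used here, so dim genes could not be filtered. Array medians lay between -0.00223 and 0.00731, the SD of an array between 0.103 and 0.171, and 0 pairs of arrays held the same values; the precision rests on 4 arrays per time.

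Of 34351 probe sets 23521 named 1 gene, and probe sets of a gene were averaged to 22180 genes. limma 3.58.1 (R 4.3.3) fitted a 24-h cosine and sine, a 12-h term beside them, and 6 time means with contrasts (18 residual degrees of freedom), with Benjamini-Hochberg adjustment over all genes. The fit was tested on simulated data. Correlations used 100000 permutations within times. Samples were grouped by the time in their titles. Labels do not state whether the 4 replicates differ in anything but the animal.

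Members and lists were chosen with earlier results of these data known. Named genes were the 10 members, up to 4 called genes of largest amplitude per list, the clock genes Arntl, Nr1d1 and Dbp, and the 3 genes closest by correlation to Tcap, Ankrd23, Ankrd1 and Myot, leaving out predicted genes. The replicate numbers of the labels did not pair the arrays. Alternatives were median centring, quantile normalization, the most variable probe set, array weights, robust empirical Bayes, protein-coding genes only, a replicate block and leaving out each array.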

Additional observations from a re-analysis of the deposited data

Results flagged for a closer look

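With 4 arrays per time, a single array can stand apart by Dixon's test, and 4 of the 60 groups of gene and time held such an array, where about 3 would by chance. Ankrd23 had 0.819 in ZT03 replicate 2, above the other arrays of that time, the next of which had 0.44. Ldb3 had 0.184 in the same array, against 0.084 in the next. For both, the gap over the range was 0.831, just past the test's limit of 0.829. Ankrd2 had -0.204 in ZT07 replicate 3, below the next lowest of -0.0011, and Csrp3 had 0.0913 in ZT11 replicate 2, above the next highest of 0.0090. Without ZT03 replicate 2 the rhythm call of Ankrd23 was kept, and without ZT07 replicate 3 that of Ankrd2 was still not made.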

How the results depend on the processing

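The count of the 10 genes with a 24-h rhythm lay between 6 and 7 over 32 alternatives, and that of other pathway genes between 20 and 25 (22 as reported). Counts were 3 for dusk against dawn and 0 for a 12-h term throughout, 3 to 4 for called steps and 4 to 6 for night against day. The count of genes that differ among the 6 times (4 as reported) fell to 2 with the replicate block, was 6 with array weights, under which Csrp3 and Myot were also called, and ranged from 2 to 5 when single arrays were left out; the cause was not tested. The fit without the 3 arrays of widest spread (ZT15 replicate 1, ZT23 replicate 4 and ZT07 replicate 4) was chosen after seeing the data and gave 7 rhythms, 3 genes that differ among times and 5 between night and day. Night minus day of Ankrd2 (0.013) turned to -0.0046 without ZT07 replicate 3, -0.0012 without ZT15 replicate 1 and -0.0031 without the 3 arrays, and ranged from -0.0046 to 0.028 when single arrays were left out. That of Ankrd23 (-0.021) turned to 0.020 with quantile normalization, 0.013 without ZT03 replicate 2 and 0.0076 without the 3 arrays, with a range of -0.056 to 0.013 over single arrays left out; neither difference was called in any of these. Deviations of same-numbered arrays at different times correlated with a median of -0.010 over 60 pairs (-0.228 to 0.226), and 8 of 24 arrays correlated best with their own number, so the numbers were not taken as pairs. The replicate block also ended the night and day call of Ankrd1, which left 5 such calls, and changed no other call of the 10 genes. Signal over background is unknown.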
